A study of Danio rerio with 6 samples.

Results

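The set described here holds the zebrafish genes whose RNA levels in both uninjected control libraries lay at least 2-fold outside those of all 4 morpholino-injected libraries. A gene was taken into the set when the lower of its 2 control levels was at least 2 times the highest injected level, or when the higher control level was at most 1/2 of the lowest injected level. Levels were read counts scaled to a common library total (CPM), with 0.5 CPM added to both sides of the ratio, and genes with a mean under 1 CPM were not considered. Of 19194 genes tested, 58 were members. Of these, 27 were higher in the controls and 31 were lower. A further 1 gene in the first direction and 2 in the second met the fold rule but were left out by their names (symbols that start with cry or hox, crx, cdkn1a and mdm2 were excluded). With these counted, 0.146% of all tested genes met the rule as higher in the controls and 0.172% as lower. The members were selected by this very difference between control and injected libraries, so that difference is given below as a description and without a test.

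The study asked how the kinases Gcn2 and Perk act in embryos that lack threonyl-tRNA synthetase. Whole embryos of the Tübingen strain at 36 hours post-fertilization (hpf) were used, either homozygous for a recessive, ENU-induced nonsense allele of tars (tars-/-) or siblings, which the labels call wild type. Each genotype gave 1 uninjected library, 1 library from embryos injected at the one-cell stage with an antisense morpholino against gcn2 (gcn2 MO) and 1 with a morpholino against perk (perk MO), 6 libraries in all. There was 1 library per condition, so no difference could be compared with a spread between replicates. The number of embryos per library is not given in the sources used here, nor is the way tars-/- embryos were recognised at this age or whether the siblings included heterozygotes. No library was labelled as injected with a control morpholino, so injection itself and the loss of either kinase cannot be told apart in the contrast that defines the set. The libraries held 29949451 to 47516784 counted reads each. The 95% intervals below are exact Clopper-Pearson intervals of the read counts given the library totals and cover counting error only.

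By 36 hpf the zebrafish retina is producing its first neurons, and the pineal organ in the forebrain already holds photoreceptors. Both tissues use homeodomain factors such as Otx5 and Six7 together with the nuclear receptor Nr2e3 to switch on photoreceptor genes. At the same stage, the hatching gland, a transient group of secretory cells lying over the yolk, is filled with proteases that later digest the egg envelope. Among them are the He1 metalloproteases, while zebrafish ctslb, a cathepsin L, is also known as hatching gland gene 1.

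Genes of photoreceptors and their precursors led the members that were higher in the controls. The largest ratio by the rule (7.02, with 0.5 CPM added) belonged to six7, a homeodomain factor that zebrafish need for green cone opsin expression. It was at 11.3 CPM in the sibling control and 6.94 CPM in the tars-/- control. With gcn2 MO it was at 0.311 CPM in siblings and 0.560 CPM in tars-/-, and with perk MO at 0.0668 and 0.379 CPM. The smallest gap between a control and an injected library was the one from the tars-/- control to tars-/- with gcn2 MO, a ratio of 12.4 (7.68 to 21.3) without the added 0.5 CPM. The photoreceptor nuclear receptor nr2e3 followed, at 13.8 and 10.9 CPM in the sibling and tars-/- controls. Its injected levels were 1.33 CPM (siblings) and 0.684 CPM (tars-/-) with gcn2 MO and 0.234 and 0.863 CPM with perk MO, so that the smallest control to injected ratio was 8.19 (6.04 to 11.3). All 4 injected libraries were low for both factors, and in both the sibling perk MO library was the lowest. For six7 this order rests on 2 reads in that library, against 11 to 18 reads in the other injected libraries.

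The Otx genes of the set were higher in the controls with smaller ratios. otx5, which drives pineal gene expression in zebrafish, was at 23.8 CPM in the sibling control and 14.4 CPM in the tars-/- control, 4.07 and 1.96 CPM with gcn2 MO in siblings and tars-/-, and 1.37 and 3.37 CPM with perk MO. otx2, a factor of forebrain and eye, was at 102 and 89.2 CPM in the controls, at 43.7 and 26.7 CPM with gcn2 MO and at 23.5 and 42.2 CPM with perk MO. Its ratio by the rule was 2.03, close to the limit. The paralogues otx1a (22.1 and 18.7 CPM in controls, 23.9 to 29.0 CPM in injected libraries) and otx1b (42.0 and 39.5 CPM, 41.4 to 47.1 CPM) were outside the set. These and the other paralogues named below were chosen after the values had been seen.

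Among effector genes of photoreceptors, rho, the rod opsin, was at 3.21 CPM in the sibling control and 4.40 CPM in the tars-/- control. It was at 0.424 CPM in siblings and 0.591 CPM in tars-/- with gcn2 MO and at 0.0668 and 0.253 CPM with perk MO. pde6g, the inhibitory subunit of the phototransduction phosphodiesterase, was at 9.66 and 11.3 CPM in the controls and between 3.11 and 4.17 CPM in the injected libraries, where the 4 values lay close together. samd7, which in mice silences genes in rods, was at 4.05 and 3.1 CPM in the controls and between 0.367 and 0.501 CPM after injection. rho and pde6g were among the 4 of 27 members higher in the tars-/- than in the sibling control, with ratios of 1.37 (1.08 to 1.75) and 1.17 (1.01 to 1.34).

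Factors of other retinal and brain neurons were also among the members of this direction. vsx1, a bipolar cell factor of the retina, was at 32.6 and 24.4 CPM in the sibling and tars-/- controls, 7.07 and 3.89 CPM with gcn2 MO, and 3.07 and 8.63 CPM with perk MO. tfap2d, an AP-2 factor of midbrain and retina, was at 21.0 and 21.4 CPM in the controls, 9.98 and 2.61 CPM with gcn2 MO, and 1.04 and 7.34 CPM with perk MO. vsx1 and tfap2d had their lowest level in siblings with perk MO and their next lowest in tars-/- with gcn2 MO. The ganglion cell factor pou4f2 was at 20.8 and 14.6 CPM in the controls and between 3.21 and 5.49 CPM in the injected libraries. barhl1a, a Bar-family homeobox gene of brain and retina, was at 19.8 and 15.1 CPM against 2.05 to 6.19 CPM. The gene listed as zgc:158291, which the RefSeq table names pou4f4, was at 45.1 and 35.1 CPM against 10.7 to 16.9 CPM.

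sox12, a SoxC factor of differentiating neurons, was one of the most abundant members of this direction by reads. Its levels were 142 CPM in the sibling control and 115 CPM in the tars-/- control, then 53.6 and 19.1 CPM with gcn2 MO in siblings and tars-/-, and 13.0 and 53.7 CPM with perk MO. The sibling perk MO and tars-/- gcn2 MO libraries were thus the lower of the injected libraries. The other SoxC genes analysed were outside the set. Nearest to the rule was sox4b (152 and 159 CPM in controls, 68.8 to 86.3 CPM after injection, ratio 1.75), followed by the 2 genes listed as sox4a (1.32 and 1.24), sox11b (1.14) and sox11a (1.04). CR848047.1, a gene without a descriptive name, had its lowest levels in the same libraries: 170 and 138 CPM in the controls, 46.3 and 9.27 CPM with gcn2 MO, and 6.14 and 43.0 CPM with perk MO. Both genes had intervals of the smallest control to injected ratio that lay above 2, at 2.14 (2.03 to 2.25) for sox12 and 2.97 (2.81 to 3.15) for CR848047.1.

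**Figure D1:**
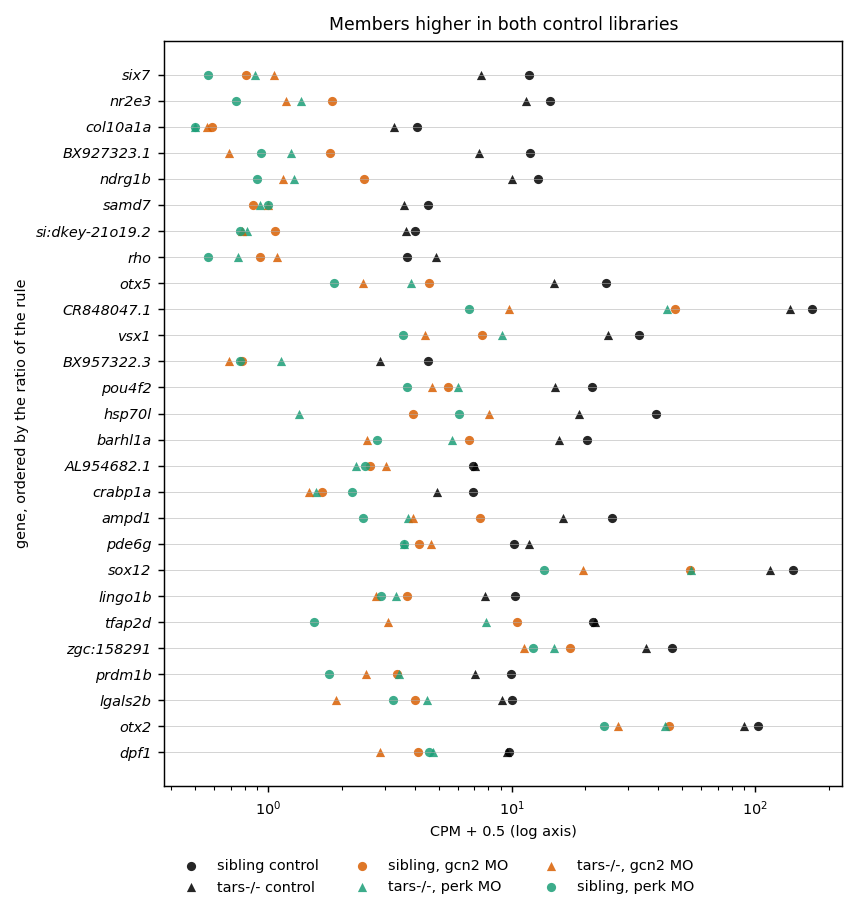
Each row is 1 of the 27 members higher in the controls and each symbol 1 library, with its level as CPM + 0.5 on a log axis. The black control symbols lie to the right of all coloured symbols in every row by construction of the set, and siblings with perk MO (green circles) hold the lowest value in 15 of the 27 rows, not counting col10a1a at 0 in both perk MO libraries.

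Other named members of this direction belong to skeleton, muscle and retinoid biology. col10a1a, a type X collagen of the forming skeleton, was at 3.56 CPM (141 reads) in the sibling control and 2.79 CPM (99 reads) in the tars-/- control. The smallest control to injected ratio was 32.9 (10.9 to 162) without the added 0.5 CPM. It had 3 reads in siblings and 2 reads in tars-/- with gcn2 MO and no read in either perk MO library. Against a floor of 3 reads in the library at 0, the control of the same genotype was at least 35.6-fold higher in siblings and at least 44.2-fold higher in tars-/-. ampd1, a muscle AMP deaminase, was at 25.4 and 15.7 CPM in the controls and between 1.94 and 6.90 CPM after injection. ndrg1b, of the NDRG family, was at 12.3 and 9.53 CPM against 0.401 to 1.98 CPM, while its paralogue ndrg1a was at 55.2 and 54.0 CPM against 60.6 to 83.5 CPM. crabp1a, a cellular retinoic acid binding protein, was at 6.45 and 4.43 CPM against 0.964 to 1.7 CPM, and its paralogue crabp1b was at 23.6 and 21.7 CPM against 18.7 to 27.2 CPM. ndrg1a was thus lower in the controls than in the injected libraries, and crabp1b overlapped between them.

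The inducible chaperone gene hsp70l was at 38.6 CPM in the sibling control and 18.3 CPM in the tars-/- control, 3.42 and 7.52 CPM with gcn2 MO in siblings and tars-/-, and 5.54 and 0.842 CPM with perk MO. Its lowest level was in tars-/- with perk MO, as it was for AL954682.1. It was also the only member of this direction that was at least 2-fold apart between the controls, with a ratio of tars-/- to siblings of 0.475 (0.432 to 0.521). The related genes hsp70.1 (85.7 and 45.4 CPM in controls, 5.30 to 32.8 CPM after injection), hsp70.2 (68.8 and 41.5 CPM, 5.18 to 29.1 CPM) and hsp70.3 (179.9 and 81.3 CPM, 13.8 to 72.5 CPM) had their lowest level in the same library and fell short of the rule. Reads from such near-identical copies may have been divided among them or left uncounted, so the level of any 1 of them is uncertain.

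The other members higher in the controls were BX927323.1, si:dkey-21o19.2, BX957322.3, AL954682.1, lingo1b, prdm1b, lgals2b and dpf1. prdm1b was at 9.46 and 6.54 CPM in the controls against 1.27 to 2.95 CPM, while its paralogue prdm1a was at 23.6 and 22.9 CPM against 21.6 to 26.3 CPM. lingo1b, a neuronal membrane protein with leucine-rich repeats, was at 9.76 and 7.25 CPM against 2.27 to 3.19 CPM. The members just inside the limit were dpf1, a neuronal subunit of the BAF chromatin remodelling complex in mammals (ratio 2.01), otx2 (2.03) and the galectin gene lgals2b (2.03). Just outside it were zgc:162707 (1.97), barhl2 (1.96) and the liver-type glycogen phosphorylase gene pygl (1.95), and 15 genes had ratios from 1.8 to 2.

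Within whole embryos, fewer cells of a type and less RNA per cell cannot be told apart. The marker list of photoreceptors and pineal (6 of 7 genes matched) did not go the way of six7, nr2e3 and rho. Its summed level was 5.13 to 7.64 CPM in the controls and 7.09 to 8.61 CPM in the injected libraries, with opn1sw1 at 0 in at least 1 library. A longer list of 36 analysed photoreceptor and pineal genes, written with earlier results of these data known, held 7 members. These were six7, nr2e3, otx5, rho, vsx1, tfap2d and pde6g, all higher in the controls, beside 0.146% of all genes tested. Of these, vsx1 and tfap2d are described above as factors of other neurons, so the list is wider than its name. It matched 72 genes, of which those with a mean under 1 CPM were not analysed. six7 and rho, under 1 CPM in every injected library, reached that mean through their control levels. The median difference of this list, as mean log2 (CPM + 0.5) of the injected minus that of the control libraries, was −0.16 beside 0.02 for all genes tested. The list also held nrl, a rod factor, at 0.202 and 0.846 CPM in the controls and 1.55 to 2.61 CPM after injection, outside the set. Of 61 analysed genes of neural progenitors and neurons, 2 were members (barhl1a and pou4f2), beside the same 0.146%, and the median difference was −0.50. The neuron markers (3 of 4 matched) summed to 714 to 872 CPM in the controls and 387 to 606 CPM in the injected libraries, and the part of this in the members' levels was not tested.

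**Figure D2:**
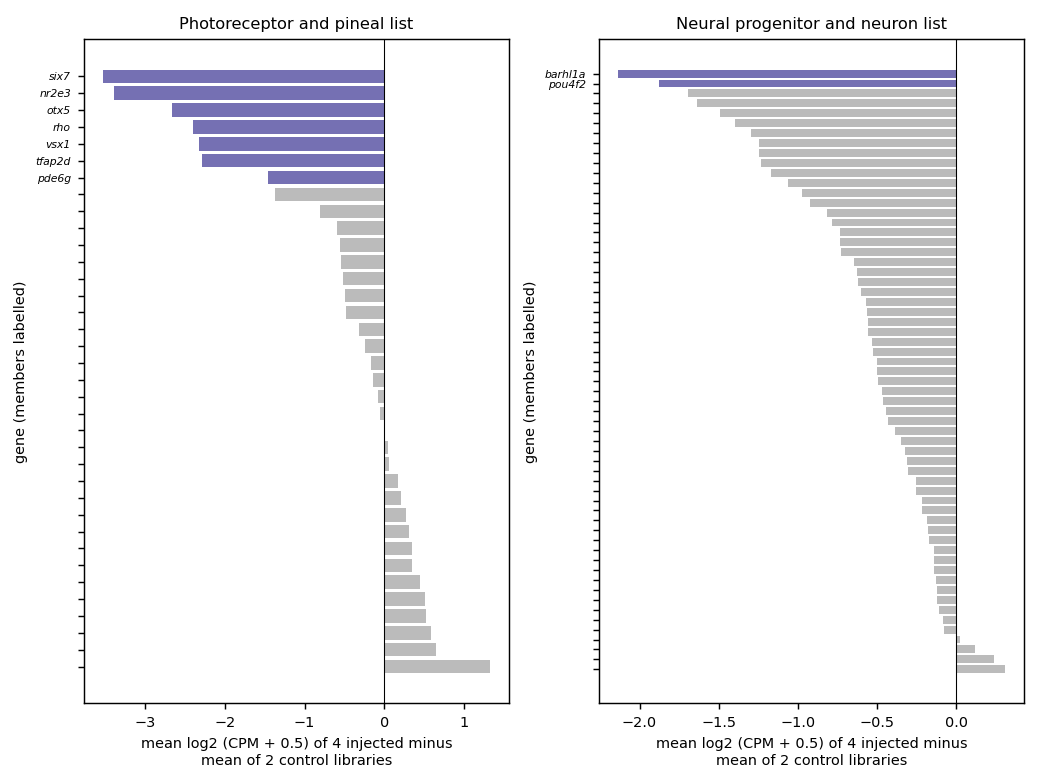
Bars show, for each analysed gene of the photoreceptor and pineal list (left) and of the neural list (right), the mean log2 (CPM + 0.5) of the 4 injected libraries minus that of the 2 controls, with members of the set in purple and labelled. The 7 purple bars on the left lie below 0 by construction of the set, in a list whose median is −0.16. The grey bar of neurod1, outside the set at −1.37, lies close to that of the member pde6g (−1.45). On the right most of the 61 genes lie below 0 with a median of −0.50.

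Of the 31 members lower in the controls, 9 were taken as cathepsin L, and these 9 held most of the summed CPM of this direction. Genes were taken when their RefSeq symbol started with ctsl or ctsl was among its synonyms, and si:dkey-26g8.4 was added by name. Their summed level was 1974 CPM in the sibling control and 2146 CPM in the tars-/- control. It was 5831 CPM in siblings and 12858 CPM in tars-/- with gcn2 MO, and 12037 and 4811 CPM with perk MO. As a share of all counted reads this ran from 0.197% in the sibling control to 1.29% in tars-/- with gcn2 MO. ctslb (ENSDARG00000039173) itself was at 176 and 202 CPM in the controls, 553 and 1446 CPM with gcn2 MO, and 1381 and 446 CPM with perk MO. The smallest injected to control ratio of ctslb was 2.21 (2.16 to 2.27), between tars-/- with perk MO and its uninjected control. This group was put together after the values had been seen.

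The cathepsin L members had a common order of libraries but not a common size of change. si:dkey-26g8.4 was the most abundant per length, at 343 and 359 FPKM (the deposited unit, which is per gene length) in the controls and between 767 and 1898 FPKM in the injected libraries. si:dkey-239j18.2 (ENSDARG00000095254) and si:dkey-26g8.5 were the least abundant, at 31.4 to 33.7 FPKM in the controls, and they reached 415 and 388 FPKM in tars-/- with gcn2 MO. All 9 had their highest level in tars-/- with gcn2 MO and their next highest in siblings with perk MO. Of the 9, 7 matched genes of the RefSeq table (assembly GRCz12tu), where they lie on 1 chromosome within 16 consecutive coding genes. How reads shared by such close copies were counted is not given in the sources used here, so the division of reads among the 9 is uncertain, and they are not 9 separate pieces of evidence.

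**Figure D3:**
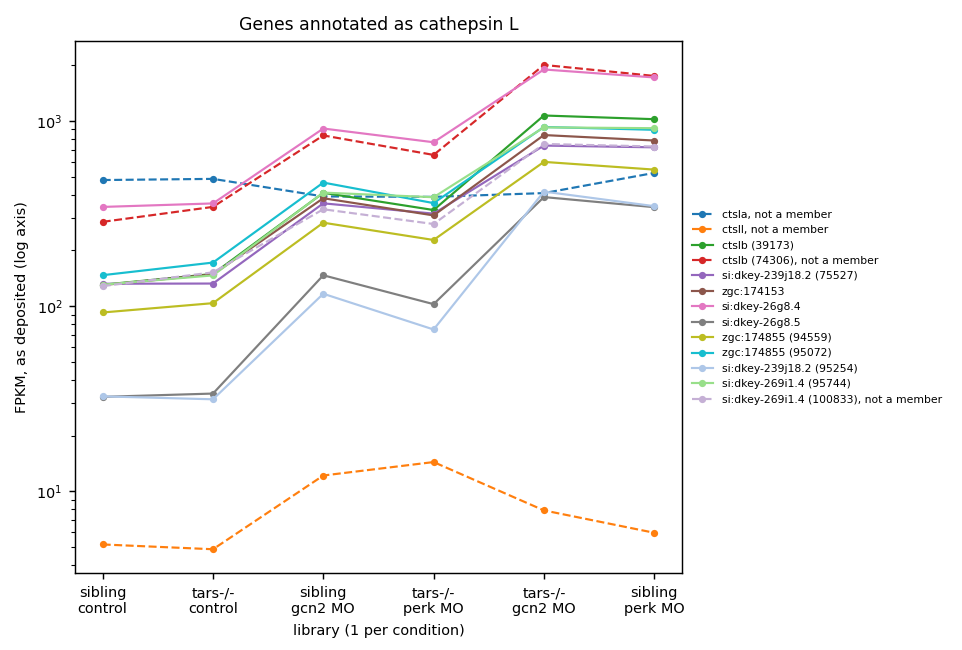
Lines join the deposited FPKM (log axis) across the 6 libraries for each analysed gene taken as cathepsin L by name. They are solid for the 9 members and dashed for other genes. The solid lines step up from the 2 controls to siblings with gcn2 MO and tars-/- with perk MO, and again to tars-/- with gcn2 MO and siblings with perk MO, while ctsla stays between 389 and 524 FPKM.

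Further cathepsin L and hatching enzyme genes fell short of the rule by different margins. The second gene listed as ctslb (ENSDARG00000074306) had a ratio of 1.91. The second gene listed as si:dkey-269i1.4 (ENSDARG00000100833), also taken as cathepsin L, had a ratio of 1.82. he1a, a hatching enzyme, was at 673 and 823 CPM in the controls, 1424 and 2165 CPM with gcn2 MO, and 2106 and 1243 CPM with perk MO, a ratio of 1.51. he1b followed at 392 and 477 CPM in the controls and 716 to 1242 CPM after injection, a ratio of 1.5. The hatching gland markers, which include both ctslb genes, summed to 1217 to 1467 CPM in the controls and to 2535 to 6198 CPM in the injected libraries. The ctslb gene that is a member was selected by this same difference, so the rise of the sum partly restates the rule. ctsla, a cathepsin L outside this group, was at 999 and 1014 CPM in the controls and 811 to 1092 CPM after injection. ctsll, also outside it, was at 8.14 and 7.67 CPM in the controls. It was at 19.2 and 12.4 CPM with gcn2 MO in siblings and tars-/-, and at 9.42 and 22.7 CPM with perk MO. Its higher injected libraries were thus those in which the cathepsin L members were lower.

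Members outside the cathepsin group with a descriptive name came from several tissues. prtgb, a protogenin of the immunoglobulin superfamily, was at 13.4 CPM in the sibling control and 10.3 CPM in the tars-/- control, 37.8 and 69.6 CPM with gcn2 MO, and 71.2 and 35.5 CPM with perk MO. Its paralogue prtga was at 0.455 and 0.451 CPM in the controls and 1.05 to 3.08 CPM after injection, outside the set. ano11, of the anoctamin family, was at 1.54 and 1.18 CPM in the controls, 4.64 and 26.3 CPM with gcn2 MO, and 30.1 and 4.74 CPM with perk MO. For prtgb and ano11, the sibling perk MO and tars-/- gcn2 MO libraries were the highest, as for the cathepsins. Between these libraries ano11 was higher in siblings with perk MO, while the prtgb levels lay close together. BFSP1, the lens filament protein filensin, was at 2.2 and 2.45 CPM in the controls and 7.41 to 11.6 CPM after injection, while bfsp2, which codes for its partner, was at 12.2 and 9.17 CPM against 6.04 to 10.3 CPM.

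A few members had similar levels in all 4 injected libraries. cps1, the carbamoyl-phosphate synthetase that starts the urea cycle, was at 3.84 CPM in the sibling control and 9.05 CPM in the tars-/- control, and at 24.5, 26.8, 20.7 and 23.0 CPM in siblings and tars-/- with gcn2 MO and siblings and tars-/- with perk MO. The next enzyme of the cycle, otc, was at 4.90 and 3.84 CPM in the controls and 4.06 to 6.08 CPM after injection. anxa1b, an annexin, was at 37.0 and 37.7 CPM in the controls and between 89.0 and 99.7 CPM after injection, and its paralogue anxa1c was at 151 and 172 CPM against 182 to 248 CPM. znf750, an epidermal differentiation factor in humans, was at 3.26 and 2.99 CPM against 7.78 to 11.4 CPM. For cps1, anxa1b and znf750, perk MO and gcn2 MO were less than 2-fold apart. The ratios in siblings were 0.845 (0.761 to 0.938) for cps1, 0.961 (0.914 to 1.01) for anxa1b and 0.681 (0.577 to 0.802) for znf750. The intervals of cps1 and znf750 lay below 1.

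Several lower members were close to 1 CPM in the controls. ms4a17a.10, of the membrane-spanning 4-domain family, was at 0.935 and 1.58 CPM in the controls, 3.87 and 13.8 CPM with gcn2 MO, and 20.1 and 4.78 CPM with perk MO, and si:ch73-56d11.5 (ms4a17a.2 in the RefSeq table) was at 0.430 and 0.846 CPM, 2.94 and 10.8 CPM, and 15.9 and 3.60 CPM. Their relative ms4a17a.9 was at 9.63 and 8.66 CPM in the controls and 9.27 to 12.4 CPM after injection. zp3.2, of the zona pellucida glycoprotein family, was at 1.74 and 1.69 CPM in the controls and 4.25 to 11.5 CPM after injection. The largest ratio of this direction was 5.31 for BX005392.3, at 0.556 and 0.733 CPM in the controls, 6.05 and 15.7 CPM with gcn2 MO, and 14.5 and 8.97 CPM with perk MO. It was followed by si:dkey-40h20.1 (3.41) and CR925709.2 (3.18). Just inside the limit were zgc:174153 (2.08), zgc:174855 (ENSDARG00000095072, 2.09) and ms4a17a.10 (2.1), and just outside it slc16a9b (1.97), BX296549.5 (1.94) and the second ctslb gene, with 11 genes between 1.8 and 2.

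**Figure D4:**
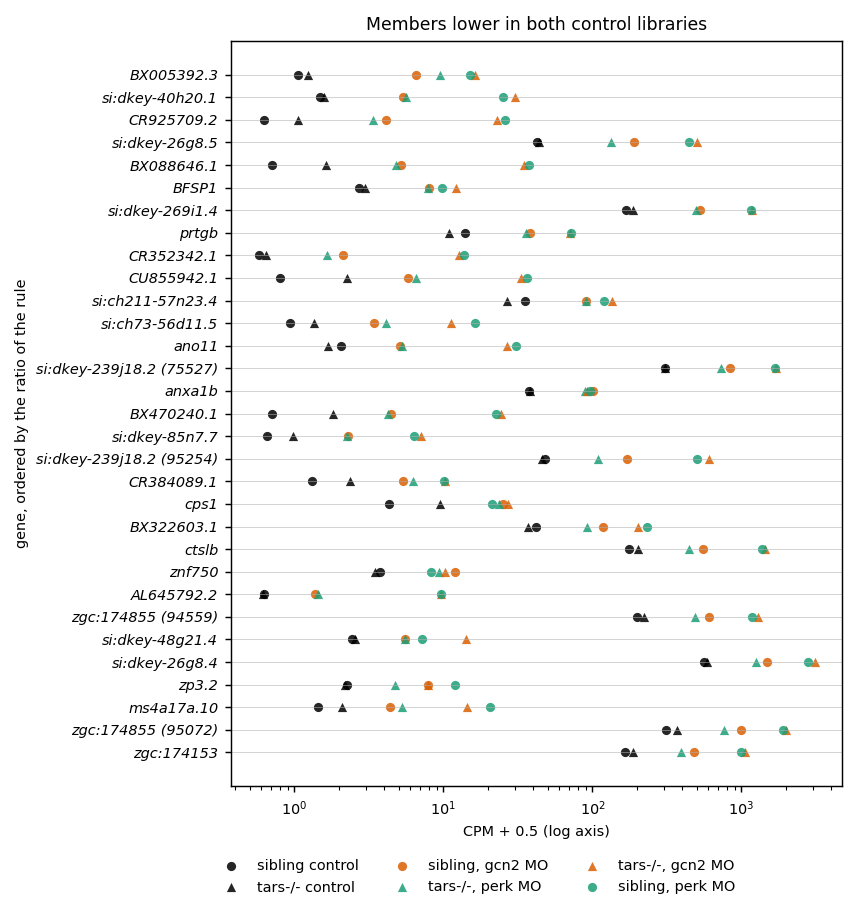
Each row is 1 of the 31 members lower in the controls and each symbol 1 library, as CPM + 0.5 on a log axis. The black control symbols lie to the left by construction, and tars-/- with gcn2 MO (orange triangles) or siblings with perk MO (green circles) hold the highest value in 18 and 11 rows. All 9 cathepsin L members are among the 18.

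Taken as sums, the members higher in the controls accounted for 768 CPM in the sibling control, 604 CPM in the tars-/- control, 230 and 111 CPM with gcn2 MO in siblings and tars-/-, and 92.3 and 212 CPM with perk MO. The members lower in the controls accounted for 2119 and 2287 CPM in the controls, 6282 and 13672 CPM with gcn2 MO, and 12876 and 5220 CPM with perk MO. Both sums place the sibling perk MO and tars-/- gcn2 MO libraries farthest from the controls. The 9 cathepsin L members made up 12037 and 12858 CPM of the lower members' sum in these 2 libraries. Gene by gene, the lowest injected level among the 27 higher members was in siblings with perk MO for 15 (not counting col10a1a, at 0 with perk MO in both genotypes) and in tars-/- with gcn2 MO for 8, where these libraries held the lowest level of all genes tested in 30.6% and 16.5%. Near ties are part of the count of 15, such as pde6g at 3.11 CPM with perk MO in both siblings and tars-/-. Among the 31 lower members the highest level was in the tars-/- gcn2 MO library for 18, beside 26.3% of all genes. These 18 include all 9 cathepsin L members, which are not separate pieces of evidence. The sibling perk MO library held the highest level for 11, beside 22.2% of all genes. The median log2 difference from the mean of the controls, for higher members, was −2.33 in both of these libraries against −1.71 in the sibling gcn2 MO and −1.67 in the tars-/- perk MO library. For lower members it was 2.74 in the tars-/- gcn2 MO library and 2.72 in the sibling perk MO library against 1.59 and 1.49.

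Over the members, the difference between the 2 morpholinos ran in opposite directions in the 2 genotypes. The rule treated the 4 injected libraries alike and did not use this contrast, but it selected the members on the levels in these same libraries. The shares of all genes given beside them are of genes not selected in this way. In siblings, perk MO over gcn2 MO had a median log2 ratio of −0.56 over the higher members and 1.16 over the lower members, beside −0.03 over all genes. In tars-/- the medians were 0.35 and −1.40, beside −0.04. In siblings 9 of the 27 higher members were at least 2-fold lower with perk MO, beside 1.85% of all genes, and 18 of the 31 lower members were at least 2-fold higher, beside 1.51%. In tars-/- 22 of the 31 lower members were at least 2-fold lower with perk MO, beside 1.69% of all genes, and 6 of the 27 higher members were at least 2-fold higher, beside 2.03%. The 22 lower members include all 9 cathepsin L members and the 18 include most of them, and these copies are not separate pieces of evidence. hsp70l was the 1 higher member at least 2-fold apart the other way. It was at 0.112 (0.078 to 0.157) of its gcn2 MO level in tars-/- with perk MO. tfap2d had a ratio of perk MO to gcn2 MO of 0.104 (0.0694 to 0.150) in siblings and 2.81 (2.21 to 3.61) in tars-/-. For ano11 the same ratios were 6.49 (5.49 to 7.71) and 0.180 (0.155 to 0.209).

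**Figure D5:**
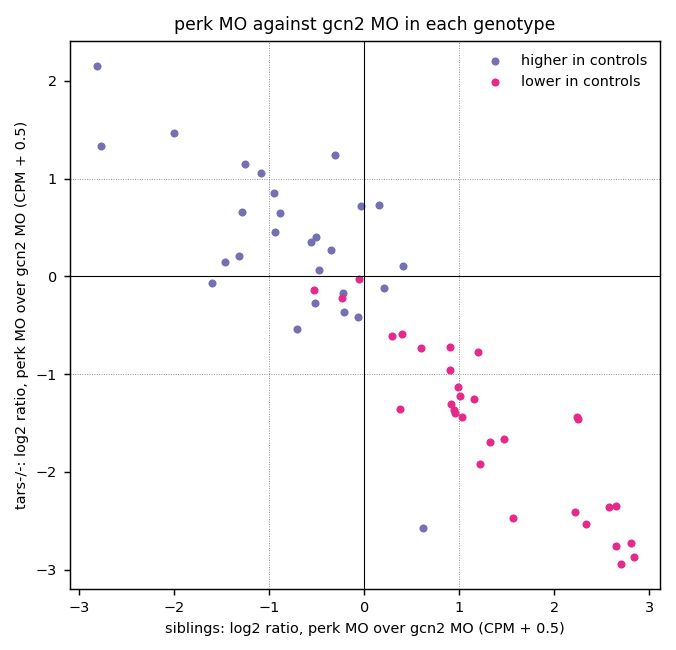
Each point is 1 member, with the log2 ratio of perk MO to gcn2 MO in siblings on the x axis and in tars-/- on the y axis, both from CPM + 0.5 and with dotted lines at a 2-fold ratio. Most lower members (pink) lie to the right and below 0 and most higher members (purple) to the left and above, with hsp70l the purple point at the bottom.

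The sibling perk MO and tars-/- gcn2 MO libraries, which share neither genotype nor morpholino, were close to each other over all genes. Closeness in this pair was thus not particular to the members. The log2 ratio of these 2 libraries had a median of −0.30 over the higher and −0.05 over the lower members, beside −0.04 over all genes. At least 2-fold apart were 1 of 27 and 0 of 31 members, beside 0.349% of all genes. tars-/- with perk MO and siblings with gcn2 MO had 1 of 27 and 0 of 31 members 2-fold apart, beside 1.88% of all genes. These pairs were set side by side after the values had been seen.

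The uninjected controls also differed between the genotypes. The ratio of tars-/- to siblings had a median log2 of −0.35 over the higher members, 23 of which were lower in tars-/-, and 0.15 over the lower members, 23 of which were higher, beside −0.11 over all genes. The share of all genes lower or higher in tars-/- was not computed, so neither count of 23 has a comparison. Most cathepsin L members were among the 23 higher ones, at ratios of 1.17 or less, and are not separate pieces of evidence. With TMM scaling, which brought the median of all genes to 0.00, the medians of the members were −0.24 and 0.23. Among the lower members 4 were at least 2-fold higher in the tars-/- control (cps1, BX470240.1, BX088646.1 and CU855942.1), beside 1.11% of all genes, and hsp70l was the 1 higher member at least 2-fold lower, beside 0.568% (0 members with TMM scaling). cps1 had the best-covered of these ratios, at 2.36 (1.94 to 2.88). For otx5 and six7 the ratios were 0.603 (0.540 to 0.672) and 0.617 (0.526 to 0.722).

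After injection the genotype difference took opposite signs with the 2 morpholinos. With gcn2 MO, tars-/- over siblings had a median log2 ratio of −0.52 over the higher and 1.3 over the lower members, and 21 of the 31 lower members were at least 2-fold higher in tars-/-, beside 1.85% of all genes, while 7 of the 27 higher members were at least 2-fold lower, beside 1.17%. With perk MO the medians were 0.51 and −1.34, and 22 of the 31 lower members were at least 2-fold lower in tars-/-, beside 2.01%, while 6 of the 27 higher members were at least 2-fold higher, beside 3.39%. The 22 lower members include all 9 cathepsin L members and the 21 include most of them, and these copies are not separate pieces of evidence. The genotype and morpholino comparisons share libraries and are not separate evidence.

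No member passed a test of genotype or morpholino averaged over the other factor. In edgeR's quasi-likelihood test of genotype, with injection state as an additive term and 2 residual degrees of freedom, 0 of the 58 members and 0 of all genes (0% of 19194) had a Benjamini-Hochberg adjusted p under 0.05. At an unadjusted p under 0.05 there were 0 members and 669 genes (3.49%), and DESeq2 called 0 members and 191 genes (0.995%). For perk MO against gcn2 MO edgeR called 0 members and 0 genes (0%), with 2 members and 172 genes (0.896%) at an unadjusted p under 0.05, and DESeq2 called 0 members and 5 genes (0.026%). The 2 members were rho, with an edgeR log2 fold change of −1.60 (unadjusted p = 0.02026, adjusted p = 1), and col10a1a (unadjusted p = 0.02072, adjusted p = 1). rho was lower with perk MO in both genotypes, at 0.158 (0.0175 to 0.677) of its gcn2 MO level in siblings and 0.427 (0.189 to 0.928) in tars-/-. The rho ratios rest on 2 reads against 15 in siblings and 12 against 19 in tars-/-. col10a1a had 3 reads in siblings and 2 in tars-/- with gcn2 MO and 0 in both perk MO libraries. In these additive fits an effect that changes sign between the genotypes counts as residual spread.

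Beyond neurons and hatching gland, few of the other lists of genes held members. Over all genes tested, 0.146% met the rule as higher in the controls and 0.172% as lower. A list of this size without a member is thus near the share of all genes. The heat shock list held 1 of 18 analysed genes (hsp70l), the lens list without crystallins 1 of 23 (BFSP1), and the skin, ionocyte and hatching gland list 1 of 31 (ctslb). The lists of interferon and innate immune genes (33 analysed), striated muscle (38), blood and vessel (27), yolk, liver and gut (27), pigment cells (20), cartilage and matrix (28), cell cycle (32), clock (28) and apoptosis (21) held no member. Red cell markers summed to 5824 to 6401 CPM in the controls and 4149 to 5173 CPM in the injected libraries, and pigment markers to 740 to 743 and 549 to 658 CPM, and neither was tested for a part in the members' levels. Lens, muscle, vessel, skin, yolk and liver and immune markers overlapped between controls and injected libraries.

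The 2 directions differed in annotation. Of the lower members, 22 of 31 (71.0%) had a clone-based symbol as deposited, against 6 of 27 (22.2%) of the higher members and 18.5% of all genes tested. Some of these have another name in the RefSeq table, such as cpn1 for CR352342.1. The 22 include most of the cathepsin L members, which are not separate pieces of evidence. The median gene length was 1460 bases for the lower and 2072 bases for the higher members, against 2541 bases for all genes. Per length, the higher members had a median of 3.77 FPKM over the 6 libraries (0.330 to 28.3 FPKM) and the lower members 8.94 FPKM (1.07 to 999 FPKM). The depth set limits for the rarest members. A total of 7 higher members had under 10 reads in at least 1 injected library and 6 lower members had under 10 reads in at least 1 control, and the interval of the smallest ratio between a control and an injected library lay wholly above 2 for 16 of the 27 and 25 of the 31.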

How the data were processed

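Total RNA of whole embryos was sequenced, and per the paper's methods the authors aligned the reads to GRCz10 with HISAT2 (2.0.5) and counted them per Ensembl gene with HTSeq. SAMtools (1.7) is named in the submitters' processing notes. The strand setting is not given in the sources used here, so reads of a gene and an antisense partner cannot be told apart. The files that the authors deposited list 34326 genes with the raw count of reads in each library, the length and the FPKM, which equalled the count divided by length and library total within a relative deviation of 5e-06. Per gene, counts were divided by the library total (median 35418488.5 reads) to give CPM. Genes that averaged 1 CPM or more, 19194 in number, were tested with edgeR (4.0.16, quasi-likelihood, TMM) under R 4.3.3, with DESeq2 (1.42.0) as an alternative, and checked on simulated data. The simulated check covered the genotype test only. It recovered 100% of genes changed 4-fold and made 16 false calls, and it does not measure the power of the tests on these libraries. Intervals came from SciPy (1.17.1). Ratios between 2 libraries have no replicate check. The members, the gene lists and the tests were chosen with earlier results of these data known.

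Genes to name were, per direction, the 15 members with the largest ratio among those with a gene name, the 3 largest of any name, the 5 most abundant, every member of a gene list, and the 3 genes on each side of the limit. Other genes named were chosen after their values were seen. RefSeq tables (assembly GRCz12tu) gave further names and gene order for 38 members that matched, and no coordinates were taken from them. Promoter motifs were not searched. Alternatives were TMM scaling, other pseudocounts, abundance minimums and fold limits, thinning to equal depth, leaving out each library, and fits without the filter or the injection term. Some genes are not reported here.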

Additional observations from a re-analysis of the deposited data

Results flagged for a closer look

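The ratio of perk MO to gcn2 MO had opposite signs in siblings and tars-/- for the median of both directions and for 22 members whose 2 ratios each were at least 2-fold. With 1 library per condition, none of these differences between the genotypes was tested. The share of all genes that meet the same filter was not computed. The 22 members were picked by this filter, so the size of their differences is partly fixed by it. Values below are the log2 ratio in siblings minus that in tars-/-. The medians differed by −0.91 over the members higher in the controls and by 2.56 over those lower in the controls.

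Among the 5 single members higher in the controls, the difference was −4.97 for CR848047.1, −4.10 for tfap2d, −3.47 for sox12, −2.41 for barhl1a and −2.14 for vsx1. Each of these was lower with perk MO than with gcn2 MO in siblings and higher in tars-/-.

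Among the 17 members lower in the controls, each was higher with perk MO in siblings and lower in tars-/-. The difference was 4.93 for ano11, 3.68 for ms4a17a.10 and 3.71 for si:ch73-56d11.5. Of the cathepsin L members, ctslb (ENSDARG00000039173) gave 3.02, si:dkey-26g8.5 gave 3.14, si:dkey-269i1.4 (ENSDARG00000095744) gave 2.41, zgc:174153 gave 2.48, and the 2 genes listed as si:dkey-239j18.2 gave 2.22 (ENSDARG00000075527) and 4.04 (ENSDARG00000095254). Genes without a descriptive name gave 5.70 (BX088646.1), 5.65 (CR352342.1, cpn1 in the RefSeq table), 5.54 (AL645792.2), 5.42 (CR925709.2), 5.0 (CU855942.1), 4.86 (BX470240.1), 4.63 (si:dkey-40h20.1) and 3.13 (si:dkey-85n7.7).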

How the results depend on the processing

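The membership depends on where limits are placed. With a pseudocount of 2 CPM, 15 members higher and 18 lower in the controls remained, with a minimum mean of 5 CPM 13 of the higher members remained, with a 1.5-fold limit the set held 125 and 76 genes, and with a 3-fold limit 9 and 4. TMM scaling removed dpf1 and ms4a17a.10, and thinning to the smallest library removed dpf1, lgals2b and ms4a17a.10. Leaving out each library in turn gave 28 to 67 higher and 31 to 61 lower genes, the largest counts, 67 and 61, without the tars-/- control. The genotype test called 0 genes with edgeR, 2 without the filter, 191 with DESeq2 and 0 to 283 when each library was left out. The test of perk MO against gcn2 MO called 0, with DESeq2 5 and 0 to 78 with a library left out. Of the members at least 2-fold apart between 2 libraries, the higher members between the controls were 0 with TMM scaling, and a pseudocount of 2 CPM left 0 and 0 members between the controls, 4 higher members between the genotypes with gcn2 MO, and 4 and 4 higher members between the morpholinos in siblings and in tars-/-. The cause of these changes was not tested. TMM effective sizes for the median ratios between 2 libraries were an alternative chosen after seeing the data, and no sign changed. The paper states that tars-/- embryos and siblings were taken from the same litters. With 1 library per condition and no litter named in the labels, no pairing beyond injection state was possible. The genotype test itself compares the genotypes within injection states. Without the injection term it called 0 genes too. Without replicates, depth limits only the counting error, and the spread between embryos is unknown.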
